A study of Mus musculus with 72 samples.

Results

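The genes described here are 10 glutathione transferases in mouse blood: Gstt1, Gstt2 and Gstt3 of the theta class, Gstm1 and Gstm5 of the mu class, Gsta4 of the alpha class, Gstp1 of the pi class, Gsto1 of the omega class, Gstk1 of the kappa class and the microsomal enzyme Mgst1. They were taken by gene name from the 31131 gene names on the array, and the set was chosen by its log2 differences between 4 Gy of x-rays and controls at day 7, where Gstt1 stood highest. That contrast is therefore described below without a test. Each gene was read by its brightest probe. Of the 10 genes, 9 passed the filters on detection and variation and were tested among 10852 genes. Gsta4 did not, because its signal was too dim: 46.6% of its spots were flagged in the mice of days 1 and 7, where the limit was 25%. Gene expression was measured in globin-reduced RNA from the blood of 72 mice, with 1 mouse on each array. The mice were male C57BL/6, 8 to 10 weeks old when irradiated, and blood was drawn from the heart 1, 3 or 7 days later. The neutron groups had received 0.25 Gy (6, 6 and 5 mice at days 1, 3 and 7) or 1 Gy (6 mice each at days 1 and 7). The x-ray groups had received 1 Gy (6, 5 and 5 mice at days 1, 3 and 7) or 4 Gy (5 mice at day 1 and 6 at day 7). The sham-irradiated controls numbered 5, 5 and 6 at the same days. The neutron beam had a fission-like spectrum and carried a share of gamma rays, and the sham mice had been placed in the neutron beam holders with the beam off, so no sham group was specific to the x-ray exposure. The comparisons ask how the expression of these enzymes in blood differed with dose, time and radiation quality.

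Glutathione transferases join the tripeptide glutathione to electrophilic compounds, which makes the products more soluble and easier to export, and several of them also reduce organic peroxides. The alpha, mu, pi, theta and omega enzymes are mostly cytosolic, the kappa enzyme sits in mitochondria and peroxisomes, and Mgst1 is an unrelated membrane protein of the endoplasmic reticulum and outer mitochondrial membrane. The liver is rich in most of these enzymes, and red cells, which carry much glutathione to protect haemoglobin from oxidants, hold some of them. The transcription factor Nrf2 induces several alpha and mu members in response to electrophiles.

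The 3 theta genes lie side by side on chromosome 10, and their probes are shown because a reader has to know whether 1 transcript could give signal on another gene's probe. In the mm9 coordinates of the array annotation, the Gstt3 probe lay at chr10:75236966-75237025, the Gstt1 probe at chr10:75246560-75246619 and the Gstt2 probe at chr10:75295206-75295265, all on the minus strand. Probes were 60 bases long, and the first 30 bases are given for Gstt1 and Gstt3.
Gstt1: actataatcactactttccccttgagtctg
Gstt3: gttgcttggtatgtcctgactttccaaatt
Gstt2: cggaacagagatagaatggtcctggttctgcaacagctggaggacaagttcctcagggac
The longest run of bases that the Gstt1 probe shared was 7 with the Gstt3 probe and 4 with the Gstt2 probe. Between any pair of the members' brightest probes, the longest shared run was 10 bases, for Gstm1 and Gstp1. Only exact runs between probes were compared, so whether a transcript could give signal on another gene's probe was not tested. The Gstm5 probe lay on the plus strand of chromosome 3 at chr3:107701101-107701160.
Gstm5: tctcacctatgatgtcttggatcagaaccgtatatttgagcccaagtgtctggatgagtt
The brightest Gstp1 probe was given no position. It shared a run of 13 bases, in capitals, with the probe of its neighbouring paralogue Gstp2, which lay at chr19:4040983-4041042 on the minus strand.
Gstp1: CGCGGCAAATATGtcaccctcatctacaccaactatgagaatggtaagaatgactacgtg
Gstp2: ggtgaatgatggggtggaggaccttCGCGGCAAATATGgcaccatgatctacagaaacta
The brightest Gstm1 probe was placed at chr5:117082490-117082549 and a dimmer Gstm1 probe at chr3:107815595-107815654, on the same chromosome as Gstm5. Over the 72 arrays the log2 levels of these 2 Gstm1 probes had a Pearson correlation of 0.99. The dimmer probes of Gstp1 and Mgst1 likewise had correlations of 0.98 and 0.96 with the brighter ones.

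All levels below are log2 signal relative to the median detected probe of the same array, so 0 is that median and a difference of 1 is a 2-fold difference. A comparison was called at an unadjusted limma p below 0.001 together with a Benjamini-Hochberg false discovery rate below 5%. Gstt1, Gstt2, Gstm1, Gstm5, Gstp1, Gsto1, Gstk1 and Mgst1 were well above background on all 72 arrays, Gstt3 on 67 and Gsta4 on 38. No member was saturated on any array. The arrays of 1 Gy neutrons at day 7 were dimmer than the rest, with 40.2 to 50.3% of spots well above background against 54.3 to 63.9% in the day 7 controls. RNA of other cell types was measured beside the members by marker lists. The 22 hepatocyte markers, which include Alb, Apoa1 and Ttr, were all well above background on 42 of 72 arrays, and their mean log2 level ran from -5.57 to 8.09 across mice. In the controls this level was -1.89 to 5.60 at day 1, -4.71 to 5.08 at day 3 and -4.95 to -3.12 at day 7. The 20 erythroid and reticulocyte markers were nearly all well above background on every array (18 to 20 of 20). Their mean level was 2.35 to 3.45 in all controls, -0.12 to 1.49 after 4 Gy of x-rays at day 1 and 4.90 to 5.90 after 1 Gy of neutrons at day 7. Markers of other cells were measured too. The mean level of 6 heart muscle markers was -4.83 to 4.76 in the day 7 controls and -5.68 to -1.32 after 4 Gy of x-rays at day 7. In the controls it was -5.69 to -4.78 at day 1 and -5.54 to -4.39 at day 3. Its part in the day 7 differences was not tested. In blood taken whole, fewer cells of a type and less RNA per cell cannot be told apart.

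At day 7 after 4 Gy of x-rays, Gstt1 stood far above every control mouse, and the other members were higher by smaller amounts. The 6 irradiated mice had Gstt1 log2 levels of 4.89, 4.67, 4.97, 5.59, 4.88 and 5.89, against a lowest of -1.13, a median of -0.53 and a highest of 0.91 in the 6 controls. The groups did not overlap, and the spread among irradiated mice was small (mean 5.15 ± 0.48, SD, n = 6). The difference of the means was 5.56 on the log2 scale, or 47.3-fold. Gstp1 was 2.00 higher (4.00-fold) and Gsto1 0.70 higher (1.62-fold), and for both genes all 6 irradiated mice lay above all controls. Gstm5 was 0.91 higher, with 5 of 6 mice above the controls. Gstt3 (1.70), Gstm1 (1.65), Mgst1 (1.42), Gstk1 (0.88) and Gstt2 (0.62) were higher on average, each with 3 of 6 mice above all controls. The members were chosen by these values. Over all genes tested, 17.6% were called in this contrast and 9.34% had all irradiated mice above all controls.

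Among the mice of 4 Gy of x-rays at day 7, Gstt1 was high in all 6, while several relatives were high in only 3. The SD over these mice was 0.31 for Gsto1, 0.44 for Gstm5 and 0.48 for Gstt1, and 0.79 to 2.21 for the other members. The hepatocyte marker level was 3.45, 4.29 and 6.25 in replicates 2, 4 and 6, with all 22 markers well above background, and -5.57, -4.47 and -4.25 in replicates 1, 3 and 5, where 7 to 10 markers were. The day 7 controls ran from -4.95 to -3.12. Gstt1 was 4.89, 4.97 and 4.88 in replicates 1, 3 and 5, against a highest control of 0.91. Gstm1 levels were 1.25, 2.99, 1.23, 4.39, 1.28 and 6.58 in replicates 1 to 6, and only the mice with high hepatocyte markers exceeded the highest control level of 2.40. Gstt3, the neighbour of Gstt1, had levels of -1.47, -0.59, -1.47, 0.20, -1.36 and 1.87 against control levels of -3.27 to -0.90. Gstt2 had levels of -1.0, -0.42, -0.83, 0.03, -0.78 and 1.10, and its controls lay between -1.10 and -0.76. Mgst1 levels were 2.22, 3.75, 2.44, 4.64, 2.29 and 6.46, and the highest control was at 2.82. For all of these genes the mice above the controls were replicates 2, 4 and 6. The erythroid marker level was 3.39 to 4.51 in this group and 2.68 to 3.41 in its controls. The B cell level was -0.71 to -0.06 against 2.28 to 2.60, and the T cell level 2.01 to 2.47 against 2.49 to 2.85. Neither of these lymphocyte ranges overlapped that of the controls, and their part was not tested. The 6 irradiated arrays were scanned on 1 date and the 6 control arrays on another, so scan date and exposure cannot be told apart here.

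**Figure D1:**
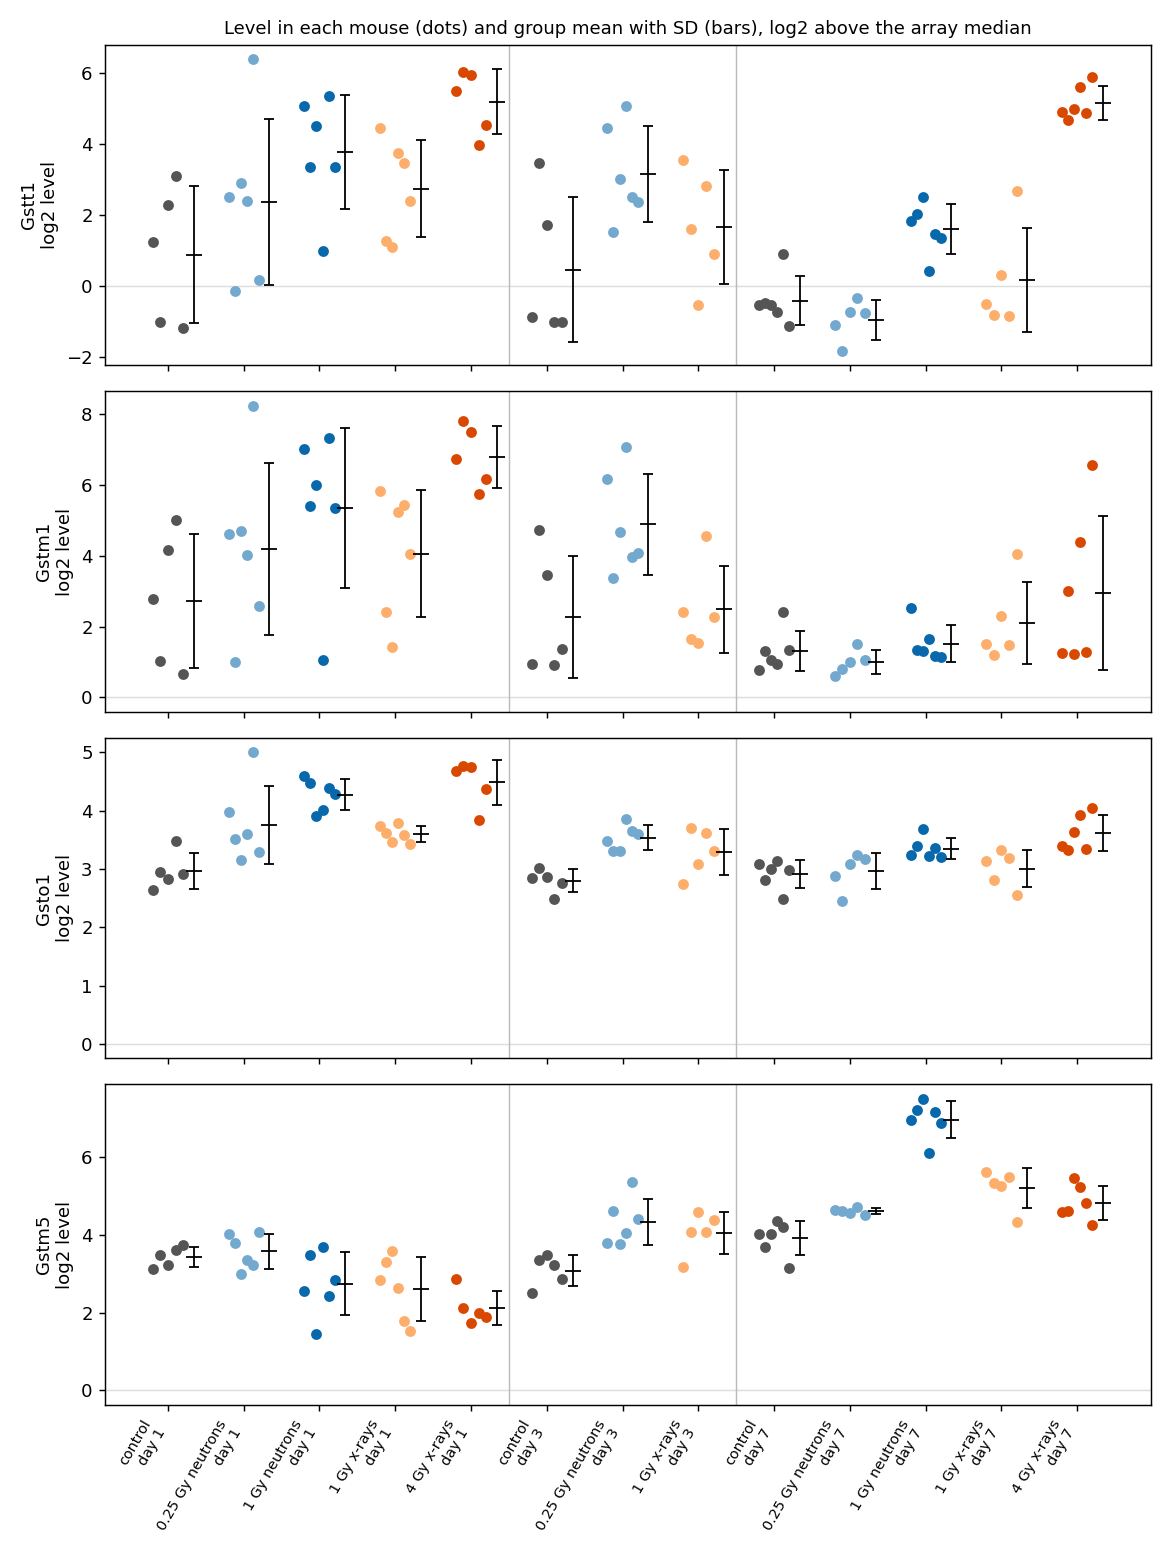
Log2 level above the array median (y axis) of Gstt1, Gstm1, Gsto1 and Gstm5 in each mouse of the 13 groups (x axis), with 1 point a mouse and bars for the mean and SD. Gstt1 was highest after 4 Gy of x-rays at both days (means 5.19 and 5.15), while Gstm5 was highest after 1 Gy of neutrons at day 7 (mean 6.95).

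Over the 13 groups, the mean log2 level of Gstt1 was highest after 4 Gy of x-rays at day 1 (5.19 ± 0.90, SD, n = 5) and day 7 (5.15 ± 0.48, n = 6). It was next highest after 1 Gy of neutrons at day 1 (3.76 ± 1.60), 0.25 Gy of neutrons at day 3 (3.16 ± 1.34), 1 Gy of x-rays at day 1 (2.74 ± 1.37) and 0.25 Gy of neutrons at day 1 (2.37 ± 2.34). Lower means followed for 1 Gy of x-rays at day 3 (1.67 ± 1.61), 1 Gy of neutrons at day 7 (1.60 ± 0.71), and the controls of day 1 (0.89 ± 1.92) and day 3 (0.46 ± 2.05). The lowest were 1 Gy of x-rays at day 7 (0.17 ± 1.47), the controls of day 7 (-0.42 ± 0.69) and 0.25 Gy of neutrons at day 7 (-0.94 ± 0.56). Every neighbouring pair in this order differed by less than the larger SD of the pair. The spread among control mice was itself wide, with day 1 controls at 1.23, -1.0, 2.27, 3.10 and -1.17 and day 3 controls at -0.88, 3.47, 1.72, -1.0 and -1.0.

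At 1 day after 4 Gy of x-rays, 8 of the 9 tested members rose and Gstm5 fell. All 9 were called, where 35.1% of all genes were (16.5% higher and 18.6% lower). The irradiated and control arrays shared no scan date, so scan date and exposure cannot be told apart here either. Of all calls 47.0% were higher as centred here and 27.4% with centring on the upper quartile. The members' median difference was 3.47 on the log2 scale, and that of all genes 0.01. Of the theta class, Gstt3 rose by 4.34 (20.3-fold, SE 0.68, adjusted p = 0.000275), Gstt1 by 4.30 (19.7-fold, SE 0.78, adjusted p = 0.000624) and Gstt2 by 2.68 (6.39-fold, SE 0.37, adjusted p = 0.000119). Irradiated mice had Gstt1 levels of 5.47, 6.03, 5.93, 3.97 and 4.53, all above the 5 controls. Gstt3 was at 3.55, 3.81, 3.57, 1.64 and 3.20, against -0.69, -2.58, 0.43, 0.10 and -3.20 in controls. Both genes separated the groups without overlap, as 20.9% of all genes did in the higher direction.

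Among the other classes at the same day and dose, the mu enzyme Gstm1 rose by 4.06 (16.7-fold, SE 0.77, adjusted p = 0.000801). It was at 6.74, 7.80, 7.51, 5.74 and 6.18 in irradiated mice and at 2.79, 1.02, 4.15, 5.02 and 0.67 in controls. Microsomal Mgst1 rose by 3.93 (15.2-fold, SE 0.68, adjusted p = 0.000483), with irradiated mice at 7.12, 8.01, 8.20, 6.47 and 6.83 and controls at 3.51, 1.92, 4.54, 5.49 and 1.54. Irradiated and control mice did not overlap for either gene. Mitochondrial Gstk1 rose by 3.47 (11.1-fold, SE 0.49, adjusted p = 0.000137) and the omega enzyme Gsto1, a reductase of dehydroascorbate and methylated arsenic, by 1.52 (2.87-fold, SE 0.24, adjusted p = 0.000299). Gstp1 rose by 2.84 (7.14-fold, SE 0.66, adjusted p = 0.00273), but only 3 of 5 irradiated mice lay above the highest control at 6.18, and the call was lost in 8 of 10 fits that left out 1 mouse. Gstm5, a mu enzyme known from brain and testis, was the exception in direction. It was at 2.85, 2.12, 1.74, 1.98 and 1.89 after irradiation and at 3.12, 3.49, 3.21, 3.60 and 3.73 in controls, and it fell by 1.32 (2.49-fold lower, SE 0.24, adjusted p = 0.000703). Here too the groups did not overlap, as for 23.5% of all genes in the lower direction.

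The hepatocyte marker level lay between 6.57 and 7.85 in these irradiated mice and between -1.89 and 5.60 in their controls, and the erythroid level between -0.12 and 1.49 against 2.65 to 3.45. Neither pair of ranges overlapped. Nor did those of the B cell markers (-2.12 to -1.07 against 2.16 to 2.89) or the T cell markers (0.40 to 1.72 against 2.22 to 2.77). The part of these lymphocyte markers was not tested. Of 8 hepatocyte markers tested, 3 rose, and of 20 erythroid markers 13 fell. With the hepatocyte level as a covariate none of the 9 members was called: the differences were 1.27 for Gstt1 (adjusted p = 0.075), 1.88 for Gstt3, 2.01 for Gstt2, 1.11 for Gstm1, 1.32 for Mgst1, 1.73 for Gstk1, 0.69 for Gstp1, 1.28 for Gsto1 and -1.15 for Gstm5. With the erythroid level as a covariate, which was added after the data had been seen, again no member was called, and the difference was 2.72 for Gstt1 and -0.41 for Gstm5. Because the marker levels of the groups did not overlap, marker level and exposure cannot be told apart in this comparison. Gsta4, which could not be tested, was well above background on 5 of 5 irradiated arrays and 2 of 5 control arrays.

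At day 1 after 1 Gy of neutrons, Gsto1 was the only member called, where 17.5% of all genes were (6.97% higher). Of all calls 39.8% were higher as centred here, 22.1% with centring on the upper quartile and 77.5% with spike-in centring. It was at 4.59, 4.48, 3.90, 4.01, 4.39 and 4.28 (median 4.33) in irradiated mice and at 2.65, 2.94, 2.83, 3.48 and 2.91 in controls, and it rose by 1.31 (2.48-fold, SE 0.20, adjusted p = 0.000801). All 6 irradiated mice lay above all controls, as 7.62% of genes did. Replicate 4 of the neutron mice had a hepatocyte marker level of -1.82, within the control range, and a Gsto1 level of 4.01. This is 1 mouse, and the source of the Gsto1 transcript was not tested. Gsto1 kept its call with the hepatocyte level as a covariate (1.21, adjusted p = 0.0028) and with the erythroid level (1.37, adjusted p = 0.0058). The B cell marker level was -1.29 to 0.61 in the neutron mice and 2.16 to 2.89 in the controls, without overlap. The part of the B cell level was not tested. Among the 4 neutron and 5 control arrays scanned on 1 date, the Gsto1 difference was 1.28. With normexp background correction it was 1.30 and not called (adjusted p = 0.066).

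The other members pointed upwards after 1 Gy of neutrons at day 1 but with wide spread. Their log2 differences were 2.88 for Gstt1 (adjusted p = 0.0228), 2.69 for Gstt3, 2.64 for Mgst1, 2.63 for Gstm1, 2.41 for Gstp1, 2.08 for Gstk1 and 1.05 for Gstt2, and -0.69 for Gstm5, none of them called. Gstt1 levels ran from 0.98 to 5.35 with a median of 3.93, and replicate 4, the mouse with few hepatocyte transcripts, had the lowest. Without this mouse 6 members were called in place of 1. The share of all genes called in that fit is not given here, so this is no result about the members alone. With all mice, the members' median difference was 2.41, against 0.05 over all genes. Unadjusted p fell below 0.05 for 7 of the 9.

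No member was called at day 1 after 1 Gy of x-rays, where 7.66% of all genes were, or after 0.25 Gy of neutrons, where 0.00921% were. After 1 Gy of x-rays the differences ran from -0.83 for Gstm5 to 1.85 for Gstt1, with Gsto1 at 0.64 (adjusted p = 0.0215) and a median of 1.21. An unadjusted p below 0.05 was reached by 4 members. After 0.25 Gy of neutrons they ran from 0.14 for Gstm5 to 1.72 for Gstt3, with a median of 1.05, and 1 member had an unadjusted p below 0.05. Gstt1 ranged from -0.13 to 6.38 among those 6 mice, and the hepatocyte marker level from 0.01 to 8.09. The marker level's part in these differences was not tested.

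Direct comparisons at day 1 separated the x-ray doses for 4 members. Between 4 Gy and 1 Gy of x-rays, Gstt3 was higher by 2.90 (SE 0.63, adjusted p = 0.00394), Gstk1 by 2.26 (SE 0.43, adjusted p = 0.00177), Gstt2 by 1.98 (SE 0.46, adjusted p = 0.00557) and Gsto1 by 0.88 (SE 0.20, adjusted p = 0.00495) at the higher dose. Over all genes, 17.6% were called and 4.58% were called higher at the higher dose. Of all calls 26.0% were higher as centred here, 10.1% with centring on the upper quartile and 48.5% with spike-in centring. Gstt1 differed by 2.45 and was not called (adjusted p = 0.00806). Leaving out 1 mouse ended the call in 10 of 11 fits for Gsto1, 9 of 11 for Gstt2 and 5 of 11 for Gstt3, and in none of 11 for Gstk1. With the scan date or the slide as a block, none of the 4 was called. Within the scan date that held both doses (1 against 4 arrays) the differences were 2.39 for Gstt3, 1.49 for Gstk1, 1.77 for Gstt2 and 1.05 for Gsto1. The hepatocyte marker level was 6.57 to 7.85 at 4 Gy and 1.48 to 6.37 at 1 Gy, without overlap, and 2 of 8 hepatocyte markers were called higher at 4 Gy. With this level as a covariate no member was called, and the differences were 0.84 for Gstt3, 0.88 for Gstk1, 0.64 for Gstt2 and 0.67 for Gsto1. No member was called between 1 Gy of neutrons and 1 Gy of x-rays, where 9.05% of genes were. In that comparison Gsto1 differed by 0.68 (adjusted p = 0.0115), with all 6 neutron mice above all x-ray mice, as 2.36% of genes were. Between 1 Gy of neutrons and 4 Gy of x-rays the largest difference was -1.65 for Gstt3, no member was called, and 0.0553% of genes were.

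At day 3, 16 mice of 3 groups were measured and no member was called. After 0.25 Gy of neutrons the differences from the controls of the day were all positive, from 0.41 for Gstt2 to 2.69 for Gstt1 (adjusted p = 0.0973), with a median of 1.71 against 0.03 over all genes, of which 1.17% were called. An unadjusted p below 0.05 was reached by 8 of the 9. Gsto1 had levels of 3.30 to 3.86 (median 3.54) in the 6 neutron mice and 2.48 to 3.01 in the 5 controls, and differed by 0.74 (adjusted p = 0.0559). Gstm5 ran from 3.76 to 5.34 (median 4.22) against 2.49, 3.34, 3.47, 3.23 and 2.85 in controls, and differed by 1.25 (adjusted p = 0.0585). For both genes every irradiated mouse lay above every control, as for 1.97% of genes. The hepatocyte level was 3.22 to 7.16 in the neutron mice and -4.71 to 5.08 in the controls. Without replicate 2 of the controls, which had the highest control levels of Gstt1 (3.47) and Gstm1 (4.73), 4 members were called. For that fit too, the share of all genes called is not given here. After 1 Gy of x-rays the differences ran from -0.31 to 1.21, with 2% of all genes called and 1 member at an unadjusted p below 0.05.

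At day 7 after 1 Gy of neutrons, Gstm5 rose most among the members, followed by Gstt1 and Gstp1. These 3 of 9 were called, where 38.3% of all genes were (25.1% higher and 13.3% lower), so the members' share was near that of all genes, and their median difference of 0.29 was close to the 0.31 of all genes. Gstm5 had a lowest level of 6.09, a median of 7.05 and a highest of 7.48, against 3.15, 4.02 and 4.35 in controls. It rose by 3.05 (8.26-fold, SE 0.26, adjusted p = 1.06e-06), and the groups did not overlap, as for 23.1% of genes in that direction. The day 7 controls are the mice that also entered the contrast by which the members were chosen. Which genes were higher and which lower at this dose and day depended on the scaling: 65.4% of all calls were higher as centred here, 53.5% with centring on the upper quartile, 52.3% with quantile normalization, 39.5% with normexp correction and 0.337% with the spike-in controls as the reference, which moved the median of all genes to -2.15.

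Gstt1 at this dose and day was at 1.84, 2.02, 2.51, 0.42, 1.48 and 1.35 (median 1.66), against control levels of -1.13 to 0.91 (median -0.53), and 5 of 6 neutron mice lay above all controls. It was higher by 2.02 (4.05-fold, SE 0.37, adjusted p = 0.000403) in the reported fit, but at -0.081 with spike-in centring and at -0.083 with the erythroid level as a covariate. Gstp1 was higher by 1.14 (2.21-fold, SE 0.26, adjusted p = 0.00199), also in 5 of 6 mice, but the difference was -0.17 with normexp correction, -0.96 with spike-in centring and -0.67 with the erythroid covariate. The Gstp1 call was lost in 10 of 12 fits that left out 1 mouse and in 10 of 13 other alternatives. Its paralogue Gstp2 was higher by 0.99 (SE 0.18, adjusted p = 0.000308), but at -0.45 with normexp correction and -1.11 with spike-in centring, and the probes share the 13 bases shown above. Gstm5 stayed positive under the same settings, at 0.95 with spike-in centring, 1.53 with normexp correction and 0.62 with the erythroid covariate, none of them called. No gene on the array was called with that covariate. The erythroid level was 4.90 to 5.90 in the neutron mice and 2.68 to 3.41 in the controls, so it and the exposure cannot be told apart. Of 20 erythroid markers tested, 19 rose. Other marker levels also lay apart from the controls: B cell at 0.40 to 0.99 against 2.28 to 2.60, and neutrophil at 2.63 to 3.56 against 1.24 to 1.98. The part of these 2 lists was not tested. For scan date, only 1 neutron array shared the date of the 6 controls, and against them it differed by 3.04 for Gstm5, 2.26 for Gstt1 and 1.32 for Gstp1. With the scan date as a block Gstm5 kept its call (adjusted p = 0.00259), while Gstt1 (adjusted p = 0.0317) and Gstp1 (adjusted p = 0.0631) were no longer called.

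The other 6 tested members were not called after 1 Gy of neutrons at day 7. Gsto1 was 0.43 higher (adjusted p = 0.0295) and Gstt2 0.42 lower (-0.42, adjusted p = 0.0251), each with all 6 neutron mice outside the control range, as 13.7% of genes were in the lower direction. With spike-in centring, Gsto1 was at -1.67. Gstt3 differed by -0.88 (adjusted p = 0.147) and was well above background on 3 of 6 neutron arrays. Gstm1, Mgst1 and Gstk1 differed by 0.21, 0.29 and -0.03. The hepatocyte level in the neutron mice had a median of -2.86, and Gsta4 was well above background on none of their 6 arrays, against 3 of 6 in controls.

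After 1 Gy of x-rays at day 7, Gstm5 was the only member called, where 4% of all genes were (3.29% higher), with 82.3% of all calls higher here and 0.687% with spike-in centring. Its levels were 5.62, 5.32, 5.25, 5.49 and 4.33, against 3.15 to 4.35 (median 4.02) in controls, so replicate 5 lay inside the control range and the other 4 above it. It was higher by 1.29 (2.45-fold, SE 0.27, adjusted p = 0.0168), but at 0.27 with spike-in centring and at -0.11 with the erythroid covariate. The call was lost in 5 of 11 fits that left out 1 mouse and with the slide as a block. No scan date held arrays of both groups, so scan date and exposure cannot be told apart. Replicate 5 also had the highest Gstt1 (2.67) and Gstm1 (4.04) of the group, and the highest hepatocyte level (3.82, against -4.65, -3.27, 2.04 and -3.69 in replicates 1 to 4). The other members differed from the controls by 0.05 to 0.79. After 0.25 Gy of neutrons no member was called, where 0.0276% of genes were, and the differences ran from -0.78 for Gstt3 to 0.69 for Gstm5. Gstm5 was at 4.64, 4.60, 4.55, 4.71 and 4.51, all above the controls, as 4.21% of genes were (adjusted p = 0.0824).

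**Figure D2:**
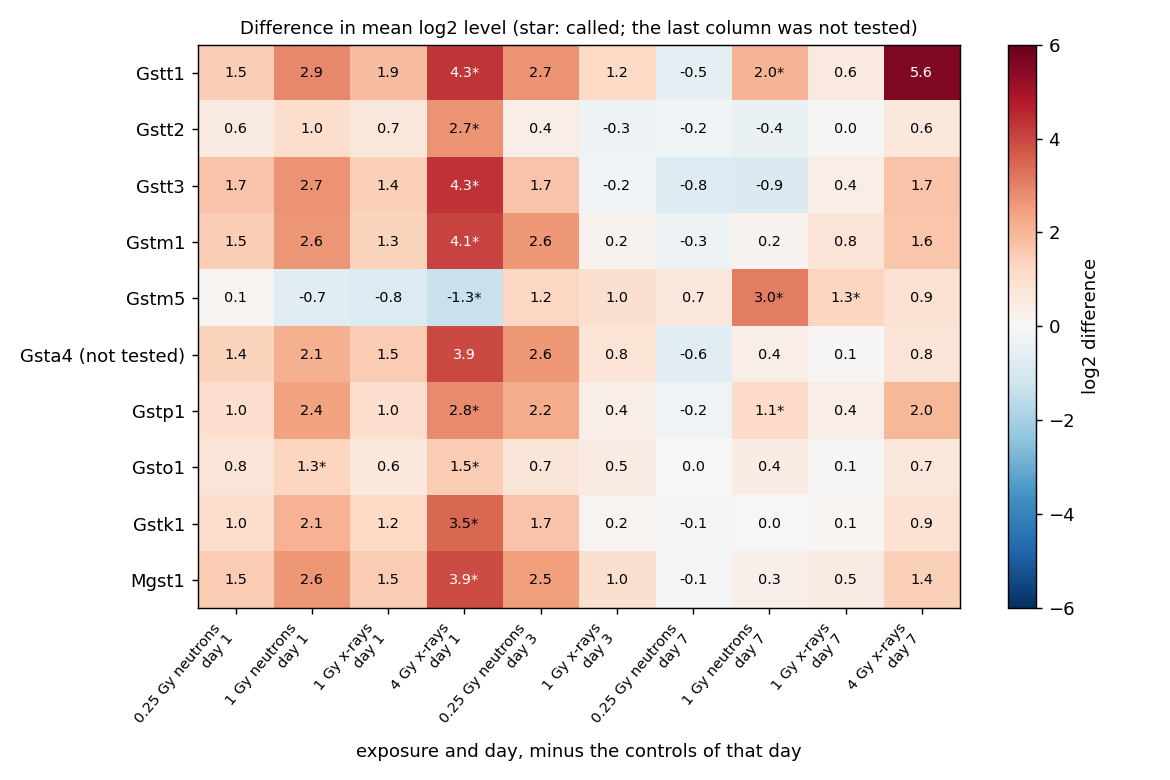
Log2 difference (colour and number) of each member (rows) between irradiated mice and the controls of the same day in 10 comparisons (columns), with a star for a call. Gsta4 was not tested, and the column of 4 Gy of x-rays at day 7 is a description. At 1 day after 4 Gy of x-rays 8 members were higher and Gstm5 lower, and at day 7 after 1 Gy of neutrons Gstm5 was higher by 3.05.

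In the reported fits Gstm5 was the only member called for a change between day 1 and day 7 in its difference from the controls. For 1 Gy of neutrons, its difference from the controls was -0.69 at day 1 and 3.05 at day 7, and the change between the days was 3.74 (SE 0.44, adjusted p = 6.44e-07), where 28.7% of all genes were called. For 1 Gy of x-rays the differences were -0.83 and 1.29 and the change was 2.12 (SE 0.46, adjusted p = 0.00276), where 8.7% were called. With the erythroid covariate neither change was called, and for x-rays it was -0.91. The Gstm5 change was also not called with normexp correction or spike-in centring for either exposure, nor with the scan date as a block for x-rays. For neutrons the number of members called rose to 6 with spike-in centring, 5 with the hepatocyte covariate and 3 with dim spots set to missing. It was 2 with quantile normalization, with centring on the upper quartile and without the variation filter. Over all genes, spike-in centring gave 9519 lower and 96 higher calls of 16084, so a call was common there. Quantile normalization gave 982 lower and 1771 higher of 10872, and centring on the upper quartile 769 and 2400 of 11481. The shares over all genes for the other settings and for left-out mice are not given here. Leaving out 1 mouse gave 1 to 6, with 6 without replicate 4 of the neutron mice of day 1 and 3 without replicate 4 of the controls of day 1. It gave 2 without replicate 3 of the neutron mice of day 1, replicate 3 of those of day 7 or replicate 5 of the controls of day 7. In the reported fits the other members' changes between the days were negative for both exposures, the lowest being -3.57 for Gstt3 after neutrons (adjusted p = 0.0094), and were not called. In the controls, no member was called between day 7 and day 1, where 5.18% of all genes were. The control differences ran from -1.42 for Gstm1 to 0.47 for Gstm5, and 2 members had an unadjusted p below 0.05. Gstt2 was at -0.63 (adjusted p = 0.0244), with all 6 mice of day 7 below those of day 1, as 4.17% of genes were. Control arrays of the 2 days were scanned on separate dates.

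Neutrons and x-rays of the same dose differed for Gstm5 at day 7. The lowest, median and highest levels were 6.09, 7.05 and 7.48 after 1 Gy of neutrons, and the 5 mice given 1 Gy of x-rays were at 5.62, 5.32, 5.25, 5.49 and 4.33. All neutron mice lay above all x-ray mice, as for 17.6% of genes, and the difference was 1.75 (3.37-fold, SE 0.29, adjusted p = 0.000899), where 23% of all genes were called (17.3% higher). Of all calls 75.4% were higher as centred here and 0.579% with spike-in centring. Within the scan dates that held both groups it was 1.72 (1 against 4 arrays) and 1.49 (4 against 1). The erythroid level was 4.90 to 5.90 after neutrons and 3.85 to 4.70 after x-rays, and 9 of 20 erythroid markers were higher after neutrons. With spike-in centring, normexp correction, the erythroid covariate, or the scan date or slide as a block, no member was called. Gstt1 differed by 1.43 (adjusted p = 0.0546) and Gstp1 by 0.73 (adjusted p = 0.0491), neither called. Over the 13 groups, the mean of Gstm5 was highest after 1 Gy of neutrons at day 7 (6.95 ± 0.48, SD, n = 6), followed by 1 Gy of x-rays (5.20 ± 0.51, n = 5), 4 Gy of x-rays (4.82 ± 0.44, n = 6) and 0.25 Gy of neutrons (4.60 ± 0.08, n = 5) at the same day. It was lowest after 4 Gy of x-rays at day 1 (2.12 ± 0.43, n = 5). In the whole order, only the step between the top 2 groups exceeded the larger SD of its pair.

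The members fell into different patterns of variation among mice of the same group. Levels were expressed as deviations from the group mean over the 72 mice, so the correlations below leave out differences between groups, and they share each array's centring. With the hepatocyte marker level, the Pearson correlation was 0.88 for Gstm1, 0.87 for Gsta4, 0.85 for Mgst1, 0.78 for Gstk1, 0.76 for Gstt1, Gstt3 and Gstp1, 0.70 for Gstt2, 0.31 for Gsto1 and -0.31 for Gstm5. Over all genes the median was -0.14, with 5% of genes below -0.44 and 5% above 0.61. Spearman's rho gave 0.91 for Gstm1, 0.79 for Gstt1 and 0.31 for Gsto1. Without the 2 mice farthest from the median marker level, r was 0.85, 0.75 and 0.25 for these 3 genes. With the erythroid marker level, r was 0.80 for Gstm5 (rho 0.80, and 0.80 without the 2 farthest mice), and -0.59 to -0.03 for the other members. Between members, r was 0.96 for Gstm1 with Mgst1, 0.94 for Gstm1 with Gstk1 and 0.93 for Gstm1 with Gstp1, and Gstm5 had r between -0.50 and 0.18 with the others.

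**Figure D3:**
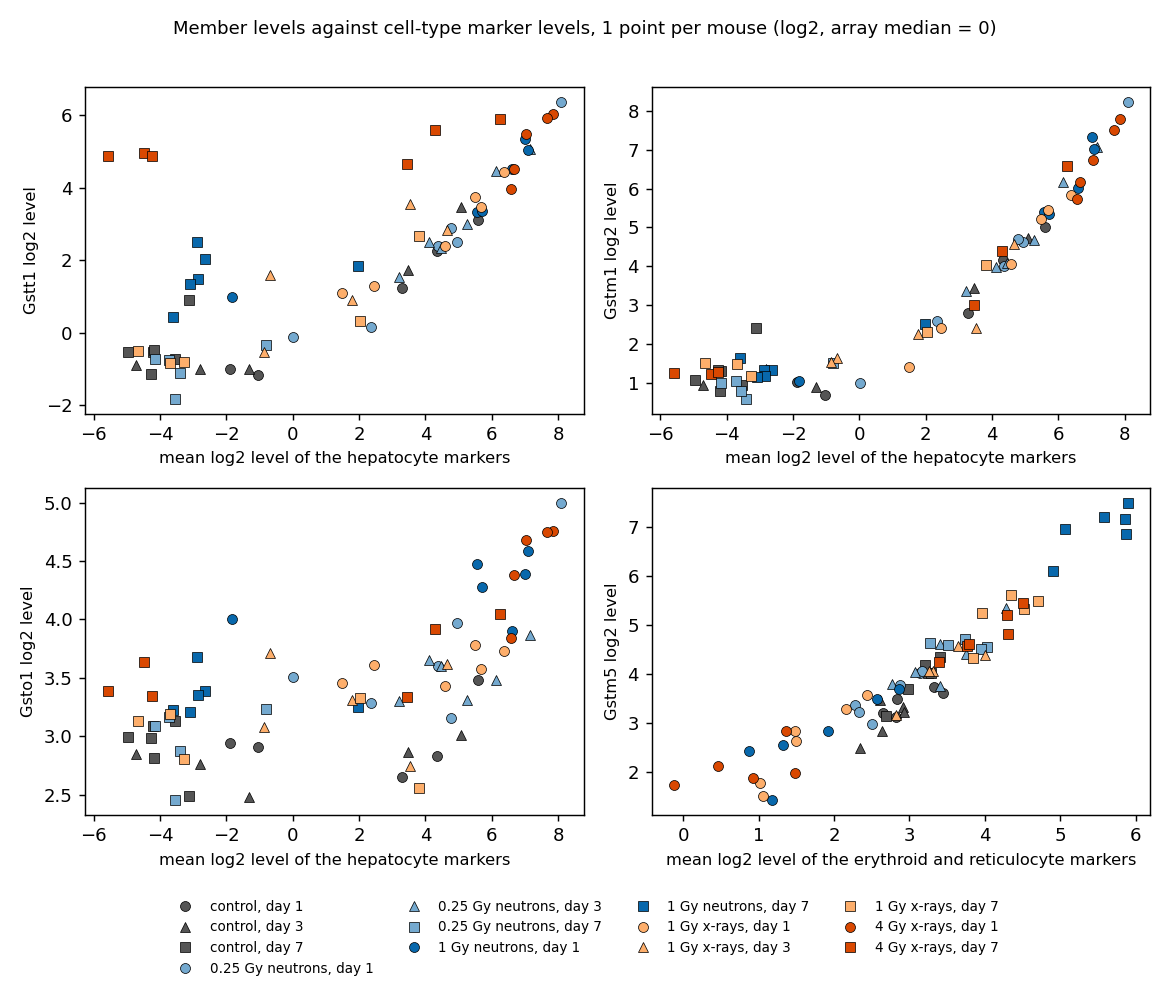
Log2 level of Gstt1, Gstm1 and Gsto1 against the mean log2 level of 22 hepatocyte markers, and of Gstm5 against that of 20 erythroid markers, in 72 mice, with 1 point a mouse and colours for the exposure. In mice given 4 Gy of x-rays at day 7, Gstt1 was 4.88 to 4.97 where hepatocyte markers were between -5.57 and -4.25, while Gstm1 was 1.23 to 1.28.

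Over the 56 arrays of days 1 and 7, the genes whose levels followed Gstt1 most closely were Glo1 (r = 0.89), the enzyme that removes methylglyoxal with glutathione as cofactor, Rnf128 (0.89), Farp1 (0.89), 1300017J02Rik (0.88) and Ropn1l (0.88). Differences between groups were left in for all correlations of this paragraph. They include the difference between 4 Gy of x-rays and controls at day 7 by which the members were chosen. The spread of r over all genes was not computed. Glo1 had a mean log2 level of 1.49 in the day 7 controls, 3.53 after 4 Gy of x-rays at day 7 and 4.21 after the same dose at day 1. Gstm5 was followed more closely, by Samd11, 2600006K01Rik, Ackr1, Gm38485 and Elob, each with r = 0.98. These 5 genes were looked up after the levels of Gstm5 had been seen.

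Promoter sequence was searched for 2 short motifs because the members moved in different ways. RefSeq promoters of GRCm38.p6, a fixed window reaching from before to just after each transcript start, were at hand for 8 of the 10 members. The letters TGACNNNGC, the core of the antioxidant response element, were found on either strand in 2 of these 8 genes and in 12.4% of all 32851 promoters. The stretch shown for Gstm5 spans chr3:107895794-107895838, with the motif on the gene's strand at position -42 from the transcript start. That for Mgst1 spans chr6:138140453-138140497, with the motif on the opposite strand at position -56. Capitals mark the motif.
Gstm5: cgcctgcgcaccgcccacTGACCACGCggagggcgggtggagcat
Mgst1: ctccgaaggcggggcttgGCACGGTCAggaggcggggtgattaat
The letters AGATAA, a site of GATA factors, were found in 1 of the 8 genes, Gstk1, and in 11.2% of all promoters. The stretch shown spans chr6:42245788-42245829, with the motif on the opposite strand at position -129, where the gene's strand reads TTATCT.
Gstk1: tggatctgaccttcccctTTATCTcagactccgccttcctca
No promoter of Gstt1 held either motif in this window.

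Of 17 other glutathione transferases and related enzymes listed, 16 were on the array and 10 were tested. After 4 Gy of x-rays at day 1, 4 rose and 1 fell, where 16.5% of all genes were called higher and 18.6% lower. The alpha enzyme Gsta2 rose by 2.38 (SE 0.32, adjusted p = 9.78e-05), and also after 1 Gy of neutrons (1.88, adjusted p = 0.00351) and 1 Gy of x-rays (1.07, adjusted p = 0.0128) at that day. Gstm2 (4.57), Gstm4 (2.63) and Gstz1 (4.02), named after their values were seen to complete the count, rose at 4 Gy as well. Mgst2, which can make leukotriene C4, fell by 1.63 (SE 0.31, adjusted p = 0.00082) there. At day 7 after 1 Gy of neutrons, Mgst3, a microsomal enzyme with peroxidase activity, rose by 2.88 (SE 0.29, adjusted p = 3.49e-06) and Mgst2 fell by 1.01 (SE 0.15, adjusted p = 7.32e-05). Mgst3 also rose by 1.17 after 1 Gy of x-rays at day 7 (adjusted p = 0.0215) and by 1.70 after 0.25 Gy of neutrons at day 3 (adjusted p = 0.0493).

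Genes that make and turn over glutathione were tested for 8 of 15 listed. At 1 day after 4 Gy of x-rays, 4 rose and 1 fell, and at day 7 after 1 Gy of neutrons 3 rose. Over all genes, 16.5% were called higher and 18.6% lower in the first comparison, and 25.1% and 13.3% in the second. The 3 of 8 called at day 7 were near the 38.3% of all genes called there. Gclm, the regulatory subunit of the enzyme that limits glutathione synthesis, rose by 3.15 (SE 0.27, adjusted p = 1.15e-06) at day 7 after 1 Gy of neutrons and by 1.75 (SE 0.23, adjusted p = 0.00249) after 1 Gy of x-rays. Ggt5, a gamma-glutamyl transferase, fell by 2.00 (SE 0.33, adjusted p = 0.000385) at 1 day after 4 Gy of x-rays and rose by 3.19 (SE 0.33, adjusted p = 3.78e-06) at day 7 after 1 Gy of neutrons. Chac1, which breaks down glutathione, rose by 1.87 (SE 0.31, adjusted p = 0.000355) at 1 day after 4 Gy of x-rays and by 1.55 after 1 Gy of neutrons (adjusted p = 0.00209). Chac2, a related enzyme, rose by 2.33 (SE 0.27, adjusted p = 8.63e-06) at day 7 after 1 Gy of neutrons.

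Of 10 glutathione peroxidases and glutaredoxins listed, 7 were tested. After 1 Gy of neutrons, 3 rose and 1 fell at day 1, and 4 rose at day 7. Over all genes, 17.5% were called at day 1 (6.97% higher) and 38.3% at day 7 (25.1% higher). Glrx5, a mitochondrial protein of iron-sulfur cluster assembly, fell at 1 day after 4 Gy of x-rays by 2.05 (SE 0.20, adjusted p = 1.72e-05), after 1 Gy of x-rays by 1.56 and after 1 Gy of neutrons by 1.38, and rose by 2.62 (SE 0.23, adjusted p = 1.51e-06) at day 7 after 1 Gy of neutrons. Gpx1, the main peroxidase of red cells, rose by 2.57 (SE 0.23, adjusted p = 1.55e-06) at day 7 after 1 Gy of neutrons and by 0.95 (SE 0.19, adjusted p = 0.0125) after 1 Gy of x-rays, where spike-in centring gave -0.07. Prdx6, a peroxiredoxin that uses glutathione, rose by 1.80 (SE 0.20, adjusted p = 3.14e-05) at 1 day after 4 Gy of x-rays. Gpx8, a peroxidase of the endoplasmic reticulum, rose at day 1 after 1 Gy of neutrons by 1.37 (SE 0.31, adjusted p = 0.00513) and after 1 Gy of x-rays by 1.32 (SE 0.27, adjusted p = 0.00762).

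Of 12 detoxification genes known to answer to Nrf2, 9 were tested. At day 7 after 1 Gy of neutrons 5 rose and 1 fell, and at 1 day after 4 Gy of x-rays 3 rose. Over all genes, 25.1% were called higher and 13.3% lower in the first comparison, and 16.5% and 18.6% in the second. The 3 of 9 called at day 1 were near the 35.1% of all genes called there. Catalase (Cat) rose by 3.09 (SE 0.24, adjusted p = 6.58e-07) at day 7 after 1 Gy of neutrons and by 1.39 (SE 0.27, adjusted p = 0.0112) after 1 Gy of x-rays. Nqo1, a quinone reductase, rose by 2.24 (SE 0.31, adjusted p = 3.78e-05) at day 7 after 1 Gy of neutrons and by 1.61 (SE 0.22, adjusted p = 0.0285) at day 3 after 1 Gy of x-rays. Ephx1, the microsomal epoxide hydrolase, rose by 2.63 (SE 0.36, adjusted p = 0.000125) at 1 day after 4 Gy of x-rays and fell by 1.61 (SE 0.16, adjusted p = 3.58e-06) at day 7 after 1 Gy of neutrons. The 4 lists together held 15 genes called at day 7 after 1 Gy of neutrons. All 15 had the same sign with quantile normalization and with centring on the upper quartile, 12 with normexp correction and 10 with spike-in centring, where Gstp2, Glrx2, Gpx4, Hmox1 and Sqstm1 changed sign. The Mgst2 and Ephx1 decreases were called under each of these scalings, and they were the only 2 of the 15 still called with normexp correction or with spike-in centring. Over all genes at that dose and day, spike-in centring gave 10052 lower and 34 higher calls of 16084, so a lower call was common there. Normexp correction gave 966 lower and 630 higher calls of 12953. The increases given above for Gclm, Ggt5, Chac2, Mgst3, Cat, Nqo1, Glrx5 and Gpx1 at that dose and day were therefore not called under either. Among the 15 genes called at 1 day after 4 Gy of x-rays, all 15 had the same sign under all 4 scalings, and 9 were still called with normexp correction and 14 with each of the other 3. For 1 Gy of x-rays, spike-in centring kept 0 of 6 calls at day 1, 0 of 2 at day 3 and 0 of 4 at day 7. Normexp correction kept 0 of 6, 0 of 2 and 1 of 4. For 1 Gy of neutrons at day 1, 0 of 5 were kept with normexp correction and 4 of 6 with spike-in centring. For 0.25 Gy of neutrons at day 3 these were 0 of 2 and 2 of 2.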

How the data were processed

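Blood RNA was hybridised to single-channel Cy3 arrays (Agilent mouse 4x44K), which were read from the scanner output of Feature Extraction 12.0.2. The deposited values used were the authors' processed signal intensity, background-corrected by that software, with its flags for outlier and dim spots. Each array held 44397 spots and 39429 probes. From these, log2 intensity was computed, outlier spots were dropped, replicate spots were averaged, and the median over detected probes was subtracted within an array. Probes were kept if under 25% of their spots on 56 arrays of days 1 and 7 were flagged and if they varied at least 1.5-fold from their median in 20% of arrays. Groups were compared in pairs with limma 3.58.1 in R 4.3.3, over 10852 genes. The authors' normalized log2 table was used only as an alternative for 1 comparison, because 12 of its 72 columns followed their own array. The members, lists and tests were chosen with earlier results of these data known. Genes on the lists were named if called in the most comparisons (up to 4 a list), and genes like Gstt1 were the 5 with the highest correlation. Nothing in the labels says how replicates of a group were housed or exposed, so p-values measure the spread between these mice. The number of mice limits the precision. Scripts were tested on simulated data. Alternatives covered background correction, centring, filters, marker covariates, scan date, slide, replicate number and each mouse left out.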

Additional observations from a re-analysis of the deposited data

Results flagged for a closer look

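Among 130 sets of 1 gene in 1 group, 15 held a mouse whose level lay far from the others of its group, by a Dixon criterion at which chance gives about 1 in 20 sets. Genes of the same mouse are not independent sets. In the controls of day 7, replicate 5 had the highest Gstt1 (0.91) and Gstm1 (2.40). In 1 Gy of neutrons at day 1, replicate 4 had the lowest Gstm1 (1.04), Gstp1 (2.79) and Mgst1 (2.74), and its hepatocyte marker level of -1.82 was the lowest of the group. In 0.25 Gy of neutrons at day 1, replicate 5 had the highest Gstt2 (2.88) and Gstk1 (5.95). In 1 Gy of x-rays at day 3, replicate 4 had the highest Gstm1 (4.56), Gstp1 (5.08) and Gstk1 (3.05). In 1 Gy of neutrons at day 7, replicate 1 had the highest Gstm1 (2.52) and also the highest hepatocyte level (1.98). In 0.25 Gy of neutrons at day 7, Gstt3 was highest in replicate 4 (-1.24) and Gsta4 in replicate 1 (-4.21). In 4 Gy of x-rays at day 1, replicate 4 had the lowest Gstt3 (1.64). In 1 Gy of x-rays at day 7, replicate 5 had the lowest Gstm5 (4.33). The part of the marker level in these values was not tested.

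In the reported fits, the effect of exposure on Gstm5 differed between day 7 and day 1, by 3.74 after 1 Gy of neutrons (adjusted p = 6.44e-07) and by 2.12 after 1 Gy of x-rays (adjusted p = 0.00276), as limma tests of the difference itself. Over all genes, 28.7% were called for neutrons and 8.7% for x-rays. Neither Gstm5 change was called with normexp correction, spike-in centring or the erythroid covariate.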

How the results depend on the processing

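The 211 recomputed results were counts of members called, except that for 4 Gy of x-rays at day 7 the Gstt1 difference was recomputed. Of these, 160 held and 51 did not. A count held within 1.5 times the reported count, and the Gstt1 difference if it moved by less than the larger group SD. Of 3645 recomputed member differences, 3285 kept their direction and side of the threshold. Another 149, in 78 of 144 combinations of member and comparison, changed sign without being called in either fit, most often with the erythroid covariate (40), the hepatocyte covariate (25) and spike-in centring (20). The cause of the changes was not tested. With normexp background correction the counts were 0 (reported 1) for 1 Gy of neutrons at day 1, 0 (3) for 1 Gy of neutrons at day 7, 0 (1) for 1 Gy of x-rays at day 7, 0 (1) for neutrons against x-rays at day 7, 2 (4) for the x-ray doses at day 1 and 0 (1) for the day change of x-rays, and the Gstt1 difference of 4 Gy at day 7 was 4.81 in place of 5.56. With quantile normalization and with centring on the upper quartile the count was 2 for the x-ray doses and 2 (1) for the day change of neutrons. With spike-in centring it was 2 (0) for 1 Gy of x-rays at day 1, 5 (0) for 0.25 Gy of neutrons at day 3, 0 for 1 Gy of x-rays at day 7, 0 for neutrons against x-rays at day 7, 7 for the x-ray doses, 6 for the day change of neutrons and 0 for that of x-rays. For that day change of neutrons, spike-in centring called 9519 of 16084 genes lower and 96 higher. With dim spots set to missing the count of members was 1 (0) for neutrons against x-rays at day 1 and 3 for the day change of neutrons. Without the detection filter it was 0 for 1 Gy of x-rays at day 7 and 2 for the x-ray doses, and Gsta4, tested only there, rose by 3.94 (SE 0.74, adjusted p = 0.00175) at 1 day after 4 Gy of x-rays. Without the variation filter it was 1 (0) for 0.25 Gy of neutrons at day 3, 1 for neutrons against x-rays at day 1 and 2 for the day change of neutrons.

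With the hepatocyte level as a covariate the count was 0 (9) for 4 Gy of x-rays at day 1, 1 for 1 Gy of neutrons at day 7, 1 (0) for neutrons against x-rays at day 1, 0 for the x-ray doses, 5 for the day change of neutrons and 2 for that of x-rays. The erythroid covariate and the slide block were added after seeing the data. With the erythroid level it was 0 for 4 Gy of x-rays at day 1, for 1 Gy of neutrons and of x-rays at day 7, for neutrons against x-rays at day 7, for the x-ray doses and for both day changes, and 2 for neutrons against x-rays at day 1. A block for the scan date gave 1 (0) for 1 Gy of x-rays at day 3, 1 for 1 Gy of neutrons at day 7, 0 for neutrons against x-rays at day 7, 0 for the x-ray doses and 0 for the day change of x-rays. With the slide as a block it was 0 for 1 Gy of x-rays and for neutrons against x-rays at day 7, 2 (0) for 1 Gy of neutrons against 4 Gy of x-rays at day 1 and 0 for the x-ray doses. The scan date could not be fitted for 0.25 Gy of neutrons at days 1 and 7, with 1 date each, or for the controls of days 7 and 1, each on its own. In 1 Gy of x-rays against controls at days 1, 3 and 7, and 4 Gy at day 1, no date held both groups. There, and for the day change of x-rays, the date was only a random block. Such a block cannot remove a difference between dates that goes with exposure. The methods' random variance test moved no count past 1.5 times.

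Correlations between samples of the same replicate number ran from -0.62 to 0.64, and in no comparison was every pair above 0.1, so the numbers were not taken as a pairing. With the replicate block the count was 0 (1) for 1 Gy of neutrons at day 1 (Gsto1 1.31, adjusted p = 0.018), 0 (1) for 1 Gy of x-rays at day 7 and 0 (4) for the x-ray doses, and no other count moved by over 1.5 times.

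Among differences called in at least 1 of the fits compared, the directions that reversed were those at day 7 of Gstt1 after neutrons (-0.081 with spike-in centring and -0.083 with the erythroid level), Gstp1 after neutrons (-0.17 with normexp, -0.96 with spike-in and -0.67 with the erythroid level), Gsto1 after neutrons (-1.67 with spike-in) and Gstm5 after x-rays (-0.11 with the erythroid level, and -0.91 for its day change).

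Leaving out each mouse in turn gave 0 to 0 calls for 0.25 Gy of neutrons at day 1 and at day 7, for 1 Gy of neutrons against 4 Gy of x-rays and for the controls. It gave 1 to 6 for 1 Gy of neutrons at day 1 (6 without replicate 4), 0 to 1 for 1 Gy of x-rays at day 1, 8 to 9 for 4 Gy of x-rays at day 1, 0 to 4 for 0.25 Gy of neutrons at day 3 (4 without replicate 2 of the controls), 0 to 1 for 1 Gy of x-rays at day 3, 2 to 3 for 1 Gy of neutrons at day 7 and 0 to 1 for 1 Gy of x-rays at day 7. Neutrons against x-rays gave 0 to 1 at day 1 and 1 to 2 at day 7, the x-ray doses 1 to 4, and the day changes 1 to 6 for neutrons and 1 to 1 for x-rays. The shares of all genes called in these fits are not given here. The Gstt1 difference of 4 Gy at day 7 ran from 5.42 to 5.83.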
